A study of Mus musculus with 5 samples.

Results

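The mouse Hox genes lie in 4 clusters, and 38 of them, named by symbol in the GENCODE vM21 annotation of GRCm38, were followed here among 21755 protein-coding genes of the autosomes and X. Cluster A spans chr6:52162417-52260880 and contributed 10 genes from Hoxa2 to Hoxa13. Cluster B spans chr11:96194316-96368256 and contributed 10 genes from Hoxb13 to Hoxb1. Cluster C spans chr15:102921103-103036852 and contributed 9 genes from Hoxc13 to Hoxc4. Cluster D spans chr2:74668310-74765142 and contributed 9 genes from Hoxd13 to Hoxd1.

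The DNA came from acute myeloid leukaemia (AML) blasts of bone marrow from mice labelled C57BL/6, measured by whole genome bisulfite sequencing. Every library carried Cebpa-/p30, that is, 1 allele of the myeloid transcription factor gene Cebpa deleted and the other making only the short p30 isoform. The libraries labelled 23 and 24 were Tet2+/+, and those labelled 5, 7 and 8 were Tet2-/-. The marrow was grown in irradiated congenic C57BL/6J.SJL recipients, Cre driven by the interferon-responsive Mx1 promoter removed the floxed alleles after injection of poly(I:C), and living CD45.2+ donor cells without CD3, B220 or Ter119 were sorted once recipients were moribund. Each library stands for 1 mouse.

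HOX proteins are homeodomain transcription factors that give cells along the body axis their position, and the order of the genes within a cluster follows the order in which they are used, from the anterior genes at one end to the posterior genes at the other. In blood, stem and progenitor cells use the A cluster and parts of the B cluster, and these genes are shut as myeloid cells mature. Hoxa9 with its cofactor Meis1 is the best known pair of this kind in myeloid leukaemia, and Hoxb4 expands blood stem cells when it is forced on. Polycomb proteins keep unused Hox genes silent, Trithorax proteins of the Kmt2a type keep used ones open, and their CpG-rich promoters are as a rule low in methylation. TET2 oxidises 5-methylcytosine on the way to its removal. Bisulfite sequencing reads 5-methylcytosine and its hydroxymethyl form alike, and these files hold no RNA level of any Hox gene.

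A methylation level is given as the percent of base calls at CpGs that were read as methylated, with both strands of a CpG summed into 1 site. Levels are listed for libraries 23 and 24 and then for libraries 5, 7 and 8, and a difference is the Tet2-/- mean minus the Tet2+/+ mean in percentage points. The libraries held 63111735 to 110752967 calls, or 2.96 to 5.19 calls per CpG site, with library 8 the shallowest. Over the genome the level was 67.3% and 62.3% in Tet2+/+ and 70.9%, 74.8% and 68.4% in Tet2-/-, so library 24 was the lowest of all 5. On the mitochondrial genome, where methylation is a gauge of failed conversion, 0.807% to 0.989% of calls were methylated. Cluster C was covered at 1.34 and 1.15 times the autosomal mean in Tet2+/+ and at 1.62, 1.67 and 1.52 times in Tet2-/-, and its whole chromosome 15 at 1.25 and 1.07 against 1.42, 1.39 and 1.43 times, so this coverage was higher in every Tet2-/- library. Cluster D was covered at 0.691 times that mean in library 5 and at 0.925 to 1.16 times in the others. The part of these coverage differences in the results was not tested. The 8 myeloid marker promoters lay anywhere from 0.790% to 68.8% in Tet2+/+ and from 1.67% to 74.7% in Tet2-/- as group means, with a median difference of 2.90 points. The difference was positive in 6 of them, up to 12.6 points in Fcgr3 (edgeR, adjusted p = 0.131), and negative in Mpo and Elane, and none passed the test. The 4 T cell marker promoters lay at 60.4% to 82.5% in Tet2+/+ with a median difference of 10.8 points, and the 4 B cell marker promoters at 24.4% to 74.7% with a median difference of 8.25. Of 5 erythroid markers 4 were covered well enough, and 1 of them, Hba-a1, was higher in Tet2-/- at 88.6%, 86.1% and 85.0% against 44.4% and 38.5% on 20 to 36 calls (edgeR, adjusted p = 0.0415), where 1.06% of all promoters were called higher. Whether the mix of cells in the sorts differed was not tested.

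Taken over whole clusters, the blasts held less methylation in clusters C and D than in A and B, and every cluster was higher in each Tet2-/- library than in both Tet2+/+ libraries. Cluster A stood at 40.9% and 31.9% in Tet2+/+ and at 44.5%, 41.4% and 47.9% in Tet2-/-. The group means, 36.4 ± 6.38 (SD) over 2 mice and 44.6 ± 3.21 (SD) over 3 mice, lay 8.17 points apart, and library 7 lay only just above library 23. The difference was 3.66 points without library 24 and 12.7 without library 23. Cluster B stood at 38.3% and 35.2% against 43.7%, 45.2% and 44.5%, a difference of 7.71 points. Cluster C stood at 20.8% and 19.3% against 28.4%, 33.0% and 31.1%, a difference of 10.8 points. Cluster D stood at 27.8% and 26.3% against 37.7%, 33.6% and 40.5%, a difference of 10.2 points. In clusters B and C the gap between the nearest libraries of the groups was wider than the range within either group. In cluster D it was narrower than the range of the Tet2-/- libraries, and in cluster A it was small. A two-sided exact permutation of the genotype labels gave p = 0.1 for each of the 4 clusters, and 0.1 after adjustment over them, the smallest value that 2 against 3 mice can reach.

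**Figure D1:**
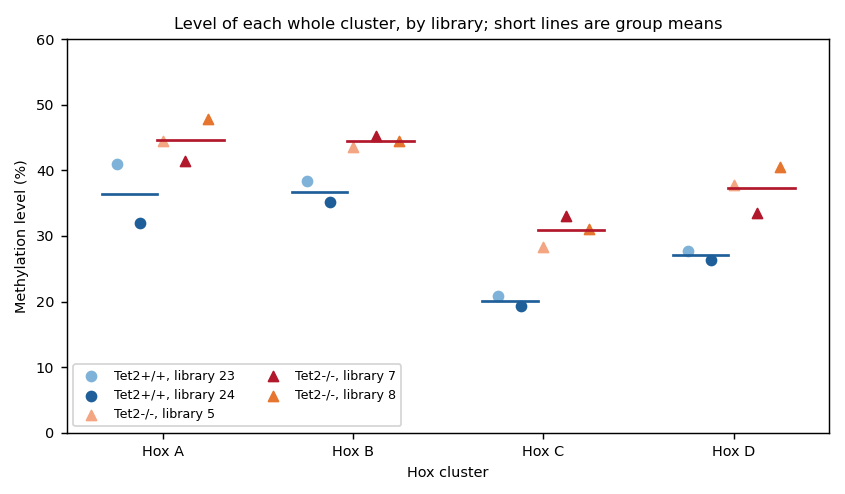
Methylation level in percent of each whole Hox cluster, 1 point per library (circles Tet2+/+, triangles Tet2-/-), with group means as short lines. In all 4 clusters the 3 Tet2-/- libraries sit above both Tet2+/+ libraries, and cluster C is the lowest in every library.

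The order of the clusters was much the same in every library. Cluster C was lower than cluster B by a mean of 14.9 ± 2.10 points (SD, n = 5 libraries), and lower than cluster A by 14.8 ± 4.46. The level of cluster C minus that of cluster D was -6.66 ± 3.62 points. Cluster D was lower than cluster A by 8.15 ± 2.94 points and lower than cluster B by 8.20 ± 3.19. These 5 differences had the same sign in 5 of 5 libraries, and an exact sign-flip permutation test over the 32 flips gave p = 0.0625 for each, the smallest it allows, or 0.075 adjusted over the 6 pairs. Clusters A and B differed by a mean of -0.0500 ± 3.30 points, with A higher in 3 libraries and lower in 2 (exact sign-flip permutation p = 1). The gain in Tet2-/- was not shown to differ between any pair of clusters, with exact permutation p from 0.2 to 1 over the 6 pairs. The clusters are CpG-rich, with 29.9 CpGs per kb in A, 20.9 in B, 21.5 in C and 28.0 in D, against 7.38 to 14.0 in the 100 kb on each side. Those flanks were more methylated than the clusters beside them in both groups. As group means the flanks of clusters A, B and C were 8.17 to 13.7 points higher in Tet2-/-, without overlap. The flanks of cluster D differed by 4.91 points on the left and by 4.06 points on the right, where the groups overlapped (exact permutation p = 0.3), against 10.2 points in cluster D itself. These flanks were not tested against the clusters.

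Within clusters A, B and D the level differed between stretches. These stretches were picked from the plotted windows, so they are described without a test. Their means cannot tell a step from a gradual change. In cluster A the stretch from the left end to the 5′ end of Hoxa6, which holds Hoxa2, Hoxa4, Hoxa5, Hoxa6 and the larger part of the annotated Hoxa3 gene without its 5′ end, stood at 81.1% and 67.6% in Tet2+/+ and at 80.1%, 73.8% and 77.0% in Tet2-/-. The groups overlapped there and the difference was 2.61 points. From that boundary to the end beyond Hoxa13 the level was 20.3% and 15.1% against 26.2%, 25.03% and 34.3%, with all 3 Tet2-/- libraries above both Tet2+/+ libraries. In cluster B the Hoxb9 to Hoxb4 stretch stood at 26.4% and 24.99% against 31.8%, 31.7% and 35.1%, and the stretch to its right with Hoxb3, Hoxb2 and Hoxb1 at 57.5% and 51.0% against 60.9%, 65.0% and 61.0%. The stretch between Hoxb13 and Hoxb9, which holds the microRNA gene Mir196a-1, lay between these, at 42.3% and 39.9% against 47.7%, 50.1% and 47.1%. In cluster D the posterior stretch up to Hoxd8 stood at 19.7% and 20.5% against 28.5%, 28.2% and 33.6%, and the anterior stretch with Hoxd4, Hoxd3 and Hoxd1 at 35.5% and 32.5% against 47.1%, 39.1% and 47.1%. Cluster C had no such split. Its middle, from beyond Hoxc11 to Hoxc6, was the lowest stretch in Tet2+/+ at 16.7% and 15.1%, and stood at 23.8%, 36.3% and 29.1% in Tet2-/-, a difference of 13.8 points.

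**Figure D2:**
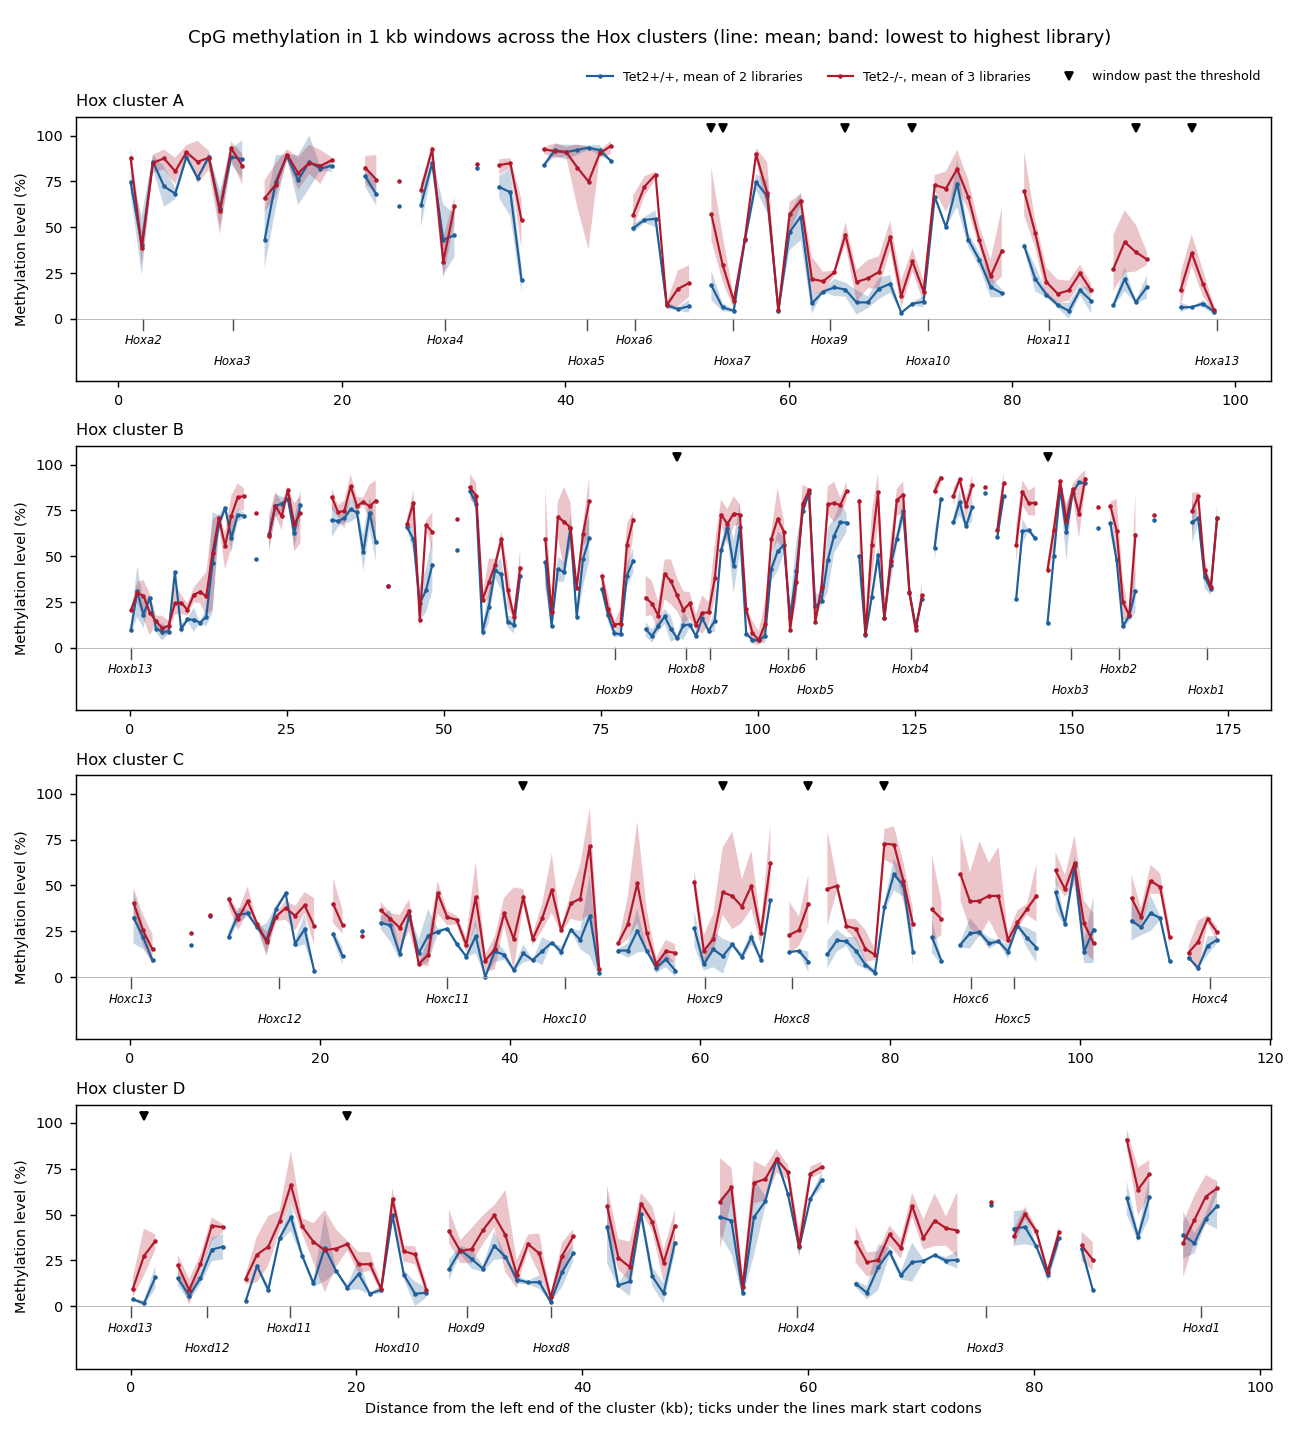
Methylation level in percent of 1 kb windows against distance in kb from the left end of each cluster, with lines for group means (blue Tet2+/+, red Tet2-/-), bands from the lowest to the highest library, and arrowheads over the 14 windows past the threshold. The left part of cluster A is near the top of the scale in both groups up to Hoxa6, and the red line runs above the blue one over most of clusters C and D.

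To set the promoters in view, 300 bases of 4 of them are printed, from 250 bases before to 50 bases after the start of the RefSeq transcript on GRCm38.p6, read 5′ to 3′ on the gene's strand with each CpG in capitals. They were chosen for their levels: Hoxa5 with the highest promoter level in Tet2+/+, Hoxa13 among the least, and Hoxa9 and Hoxb8 as blood and leukaemia genes with a higher level in Tet2-/-. Hoxa5 is at chr6:52204538-52204837 on the minus strand, Hoxa13 at chr6:52260831-52261130 on the minus strand, Hoxa9 at chr6:52227321-52227620 on the minus strand and Hoxb8 at chr11:96281655-96281954 on the plus strand.
Hoxa5: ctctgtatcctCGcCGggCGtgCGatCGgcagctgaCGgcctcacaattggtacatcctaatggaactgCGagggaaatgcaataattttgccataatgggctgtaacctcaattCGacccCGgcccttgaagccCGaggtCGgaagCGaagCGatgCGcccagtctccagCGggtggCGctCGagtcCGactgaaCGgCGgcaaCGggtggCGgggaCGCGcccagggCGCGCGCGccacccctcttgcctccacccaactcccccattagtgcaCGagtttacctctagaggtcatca
Hoxa13: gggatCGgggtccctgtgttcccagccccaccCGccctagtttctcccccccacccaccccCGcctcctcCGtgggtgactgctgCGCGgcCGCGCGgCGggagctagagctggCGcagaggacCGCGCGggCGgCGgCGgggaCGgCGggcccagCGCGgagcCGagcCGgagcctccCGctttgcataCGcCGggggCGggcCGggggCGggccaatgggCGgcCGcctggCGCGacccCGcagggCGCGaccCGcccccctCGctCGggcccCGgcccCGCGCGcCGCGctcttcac
Hoxa9: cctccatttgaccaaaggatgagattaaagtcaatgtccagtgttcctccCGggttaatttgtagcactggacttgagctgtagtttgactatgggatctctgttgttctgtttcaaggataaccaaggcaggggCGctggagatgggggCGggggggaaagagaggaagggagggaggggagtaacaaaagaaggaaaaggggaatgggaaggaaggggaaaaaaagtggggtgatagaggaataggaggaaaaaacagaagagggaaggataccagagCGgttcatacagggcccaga
Hoxb8: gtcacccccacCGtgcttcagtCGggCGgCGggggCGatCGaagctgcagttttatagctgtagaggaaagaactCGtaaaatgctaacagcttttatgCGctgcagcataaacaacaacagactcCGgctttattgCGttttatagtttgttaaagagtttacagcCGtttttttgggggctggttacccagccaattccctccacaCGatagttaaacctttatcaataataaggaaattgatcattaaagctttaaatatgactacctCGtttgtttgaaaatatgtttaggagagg
The Hoxa13 sequence has 45 CpGs and was at 0% and 0% in Tet2+/+ and at 2.86%, 2.60% and 0% in Tet2-/-, with 44 to 154 calls per library. The levels of 0% allow up to 3.16% in library 23, 6.82% in library 24 and 6.52% in library 8. The Hoxa5 sequence has 29 CpGs and was at 98.9% and 89.1% against 95.2%, 41.2% and 97.6%, so library 7 alone stood apart. The Hoxb8 sequence has 13 CpGs and was at 0% and 7.14% against 36.1%, 29.0% and 20%, with no overlap, where 0 of 65 calls allows up to 4.62%. The Hoxa9 sequence has 4 CpGs and only 5 to 12 calls per library, too few to place a level, and its RefSeq start lies inside the longer annotated gene used below. A RefSeq promoter was found for 22 of the 38 Hox genes, and their median was 14.5 CpGs per 300 bases against 7 over the 32851 promoters of the table. These short windows are described without a test.

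The promoter of a gene was taken as 1000 bp on each side of its 5′ end in the annotation. Hox promoters were seldom unmethylated in these blasts. Of 38, 2 were under 10%, 31 were between 10% and 50% and 5 were over 50% as a mean of the 5 libraries. The median was 25.01%, against 16.2% over all 19455 promoters with at least 20 calls in every library. CpG density makes that contrast wider: among promoters with 100 or more CpGs the 14 Hox promoters had a median of 30.1% and all 5325 had 4.25%, and among those with 40 to 99 CpGs the 21 Hox promoters had a median of 20.7% and all 8151 had 11.5%. The 3 Hox promoters with fewer CpGs, Hoxb2, Hoxb3 and Hoxc4, had a median of 73.1%, near the 68.9% of all such promoters. By position the 7 anterior genes (paralog groups up to 3) had a median of 48.8%, the 15 central genes 20.2% and the 16 posterior genes (groups 9 to 13) 22.0%.

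The 5 most methylated promoters all lay in or at the edge of the methylated stretches of clusters A and B described above. Hoxa5, a gene of lung and cervical spine development, was at 94.8% and 90.5% in Tet2+/+ and at 92.7%, 47.4% and 91.3% in Tet2-/-. Hoxb3, active in blood stem cells, was at 77.6% and 71.6% against 86.6%, 92.6% and 89.6%. Hoxb2, a hindbrain gene, was at 66.7% and 60.4% against 72.6%, 84.0% and 81.6%. In Hoxb2 and Hoxb3 all Tet2-/- libraries were above both controls, while for Hoxa5 library 7 fell far under the other 4. Hoxa6 was at 48.2% and 51.2% against 69.3%, 52.7% and 60%, with library 7 just above library 24. Hoxa2, which patterns the branchial arches, was at 68.2% and 43.0% against 46.9%, 58.6% and 53.3%, and there the controls lay at both extremes. At the other end Hoxa13, a gene of the digits and the urogenital tract, was at 7.47% and 4.53% against 8.80%, 9.69% and 8.01%.

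**Figure D3:**
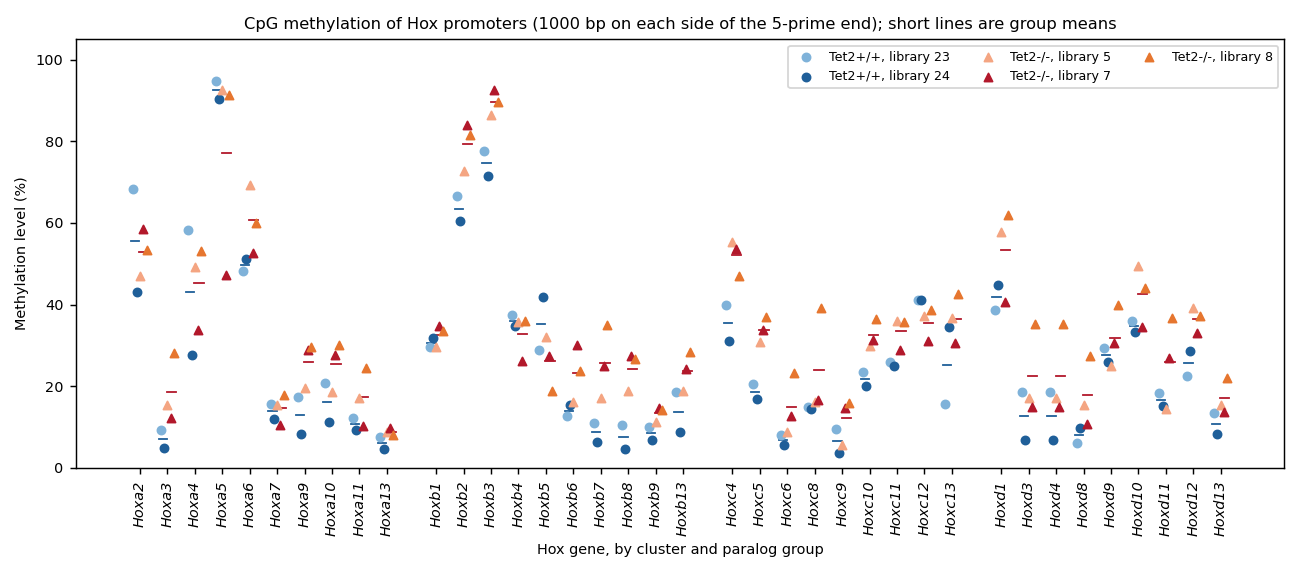
Methylation level in percent of each of the 38 Hox promoters by cluster and paralog group, 1 point per library, with group means as short lines. Most promoters lie between 10% and 50%, Hoxa5 has 4 libraries over 90% and library 7 at 47.4%, and 20 promoters have all Tet2-/- points above both Tet2+/+ points.

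The comparison of Tet2-/- with Tet2+/+ promoters asked where loss of the demethylating enzyme raised methylation. No Hox promoter passed the threshold of adjusted p 0.05 in edgeR's quasi-likelihood test, out of 209 promoters (1.07%, with 1.06% higher and 0.0154% lower) called in the genome. At an unadjusted p under 0.05 there were 9 of 38, all higher in Tet2-/-, against 18.1% of all promoters, and limma called 0 with 9 unadjusted, against 17.7%. All 3 Tet2-/- libraries lay above both controls in 20 of 38 Hox promoters, against 32.8% of all promoters, and below both in 1, Hoxc12, against 4.05%. The difference was positive in 33 of 38 (86.8%), against 76.7% of all promoters, with a median of 9.27 points against 2.22 over all promoters. Without library 8 these medians were 4.81 and 2.32, and without library 24 they were 6.80 and 1.54. After each library's median was subtracted, which moved all promoters by 0.45 on the log2 scale of methylated to unmethylated calls, 29 of 38 Hox promoters were still higher, by a median of 0.29, against 45.6% of all promoters. Groups were apart in the upward direction in 4 of 10 promoters of cluster A, 7 of 10 of cluster B, 6 of 9 of cluster C and 3 of 9 of cluster D.

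The 5 largest upward differences without overlap were in clusters B and C. Hoxb7 was at 11.01% and 6.27% in Tet2+/+ and at 17.0%, 24.8% and 34.9% in Tet2-/-, a difference of 16.9 points with an edgeR adjusted p of 0.0670, which without library 5 was past the threshold (adjusted p = 0.0328). Without each of the other 4 libraries its adjusted p was 0.118 to 0.561, with a difference of 12.3 points without library 8. Hoxb8, whose forced expression holds myeloid progenitors immature, was at 10.5% and 4.49% against 18.7%, 27.4% and 26.7%, a difference of 16.8 points (adjusted p = 0.0771). Hoxc4 was at 40% and 31.1% against 55.3%, 53.7% and 47.1%, a difference of 16.5 points (adjusted p = 0.286). In all 3 genes the lowest Tet2-/- library was above the higher control, in Hoxc4 on 74 to 150 calls per library. Hoxb2, given above, differed by 15.9 points (adjusted p = 0.292). Hoxc5 was at 20.5% and 16.8% against 30.8%, 33.8% and 37.0%, a difference of 15.2 points (adjusted p = 0.118). The Hoxc10 promoter window overlaps most of that of Hoxc5 in this annotation and stood at 23.5% and 20% against 29.8%, 31.2% and 36.4%, so these are not separate results.

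Among the A cluster genes of blood and leukaemia the promoter differences were uneven, and none passed the test. Hoxa9 was at 17.3% and 8.37% in Tet2+/+ and at 19.6%, 28.8% and 29.7% in Tet2-/-, a difference of 13.2 points (edgeR, adjusted p = 0.192) with library 5 only just above library 23, and of 8.69 points without library 24. Hoxa10, which acts in early myeloid cells and in the uterus, was at 20.8% and 11.3% against 18.6%, 27.5% and 30.1%, and library 5 fell between the controls. Hoxa7 was at 15.5% and 12.01% against 15.5%, 10.4% and 17.7%, with groups overlapping and a difference of 0.756 points whose sign changed without library 24 or library 8. Hoxa3, a further A cluster gene, needed for the thymus and parathyroid, was at 9.33% and 4.79% against 15.3%, 12.2% and 28.2%, without overlap (adjusted p = 0.140). The blood stem cell gene Hoxb4 was at 37.4% and 34.7% against 35.8%, 26.2% and 36.0%, and Hoxb3 differed by 15.0 points (adjusted p = 0.142). For Hoxb4 the groups overlapped, with library 7 the lowest. Hoxc12 was at 41.2% and 41.2% against 37.1%, 31.0% and 38.6%, lower in all 3 Tet2-/- libraries by a mean difference of -5.61 points (adjusted p = 0.636), or -3.30 without library 7.

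The remaining promoters ranged from a difference of -9.21 points in Hoxb5 to 11.7 in Hoxd1, both with overlapping groups. The annotated 5′ ends of Hoxd3 and Hoxd4, chr2:74711927 and chr2:74711929, nearly coincide. Their windows hold the same CpGs and so the same values, 18.5% and 6.87% against 17.0%, 14.9% and 35.3%. The 5′ end of some Hox genes lies far from the first coding exon, and a window set on the start codon can differ. That of Hoxa3 was 40687 bp away and stood at 92.0% and 81.8% against 82.7%, 95.5% and 91.3%, where the 5′ end was low. In the start codon windows the difference was 3.42 points in Hoxc5, 46639 bp away, against 15.2 points at its 5′ end. In Hoxb3, 20923 bp away, it was 2.21 against 15.0 points. The groups of both genes overlapped at the start codon. In Hoxa9 the difference was 7.38 against 13.2 points, without overlap. In Hoxc6 it was larger at the start codon, 17.9 against 8.15 points, with overlap. The median difference over the 38 genes was 6.82 against 9.27 points. With all promoters set on the start codon instead, 0 Hox genes passed in edgeR out of 358 genes called (1.84%, with 1.83% higher and 0.0103% lower), 8 had an unadjusted p under 0.05 against 19.2% of all, 14 had all Tet2-/- libraries above the controls against 35.6% of all genes, and Hoxb4 and Hoxc12 had them below, against 3.04%. The lowest adjusted p was again that of Hoxb7, 0.0662.

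At Hoxa5 a single library stood apart. In the 500 bp upstream of its 5′ end the level was 95.9% and 89.5% in Tet2+/+ and 93.2%, 50% and 94.6% in Tet2-/-. In the first 500 bp of the gene it was 91.0% and 91.7% against 92.9%, 28.1% and 88.0%, with 25 to 263 calls per library, and in the next 500 bp 100% and 93.2% against 93.0%, 43.1% and 96.3%. Library 7 was thus low over 1500 bp, and from 1000 bp into the gene it was back at 92.4%. Of the 139 CpGs of the promoter window, 109 had at least 4 calls in library 7, and of these 32 were under 25%, 51 between 25% and 75% and 26 over 75%. No other library had a CpG under 25% among the 20 to 65 with that many calls. Within library 7 both low and high CpGs were therefore present.

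**Figure D4:**
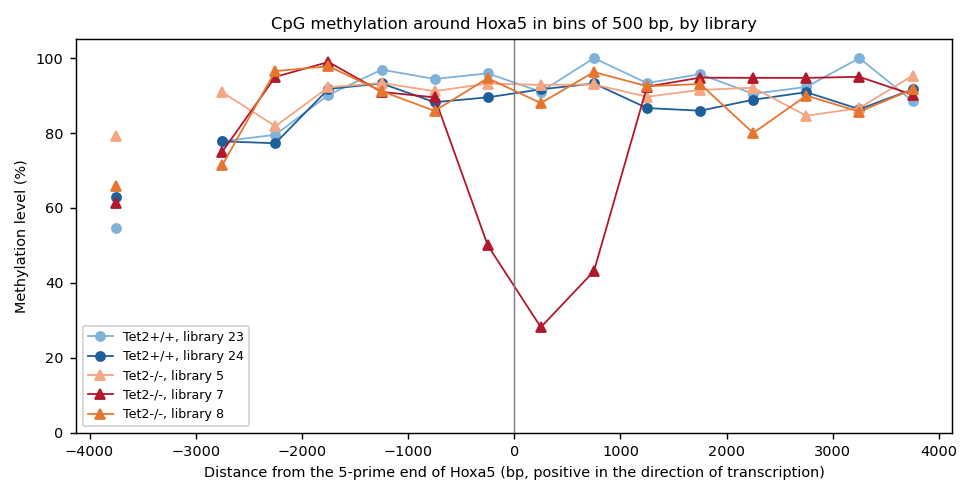
Methylation level in percent in bins of 500 bp against distance from the 5′ end of Hoxa5 in bp, 1 line per library. The Tet2-/- library 7 falls to 50%, 28.1% and 43.1% in the 3 bins around the 5′ end while the other 4 libraries stay at or above 88% in them.

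Over whole genes, from the annotated 5′ to 3′ end, 14 Hox genes were higher and 1 was lower in Tet2-/- by edgeR, of 38 tested. In the genome 15.5% of 20715 gene bodies were called, 15.5% higher and 0.0676% lower. By position the 14 were 9 of 16 posterior, 4 of 15 central and 1 of 7 anterior genes, and by cluster 4 of 10 in A, 1 of 10 in B, 6 of 9 in C and 3 of 9 in D. The 6 in C are not all separate results, since the span of Hoxc5 takes in Hoxc9, Hoxc8, Hoxc6 and most of Hoxc10. All 3 Tet2-/- libraries were above both controls in 24 of 38 Hox genes, against 46.0% of all genes, and below in 0, against 1.46%. The median difference was 9.07 points for Hox genes and 4.95 for all genes, while the median level of Hox bodies was far lower, 29.9% against 67.7%. After subtraction of each library's median, a shift of 0.42 on that log2 scale, 29 of 38 Hox bodies were still higher, by a median of 0.28, against 44.6% of all bodies. The calls changed with the test and with the libraries: limma called 0 Hox bodies (21 at an unadjusted p under 0.05, against 24.5% of all) and 0.565% of all bodies, and edgeR without library 24 called 0 Hox bodies (13 unadjusted, against 10.5% of all) and 0.420% of all. Leaving out library 23 or 24 leaves 1 control mouse, so the spread then comes from the Tet2-/- libraries and the lone control is assumed to vary like them. Without library 24 the median difference was still 7.88 points over the Hox bodies and 3.04 over all bodies. Without the first 1000 bp of each gene edgeR called 9 Hox bodies, 8 of them shared, against 10.3% of all bodies. Hoxa9 (adjusted p = 0.0513) and Hoxb3 (adjusted p = 0.0809) were among those lost. When library 5, 7, 8 or 23 was left out, Hoxa9, Hoxb3, Hoxc5, Hoxc8 and Hoxc9 stayed past the threshold each time.

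The 4 lowest adjusted p-values were all in the middle of cluster C, whose genes pattern the thoracic region. Hoxc8 was at 12.1% and 11.7% in Tet2+/+ and at 22.4%, 30.7% and 32.8% in Tet2-/-, a difference of 16.7 points (edgeR, adjusted p = 0.000999). Hoxc9 was at 12.2% and 9.30% against 16.4%, 22.3% and 23.6%. Hoxc6 was at 23.3% and 21.8% against 31.0%, 52.2% and 31.6%. The controls were close together in each, all Tet2-/- libraries were higher, and in Hoxc6 library 7 was far above the other 2. Hoxc9 differed by 10.0 points (adjusted p = 0.00102) and Hoxc6 by 15.8 (adjusted p = 0.00113). The annotated span of Hoxc5 runs over Hoxc9, Hoxc8, Hoxc6 and most of Hoxc10, so it repeats their CpGs. It stood at 18.0% and 15.7% against 24.5%, 36.7% and 29.5% (adjusted p = 0.00203). Toward the ends of the cluster Hoxc10 was at 25.7% and 22.3% against 33.7%, 40.8% and 40.6% (adjusted p = 0.0178), and Hoxc4 at 23.9% and 20.8% against 32.4%, 30.5% and 31.4% (adjusted p = 0.0354). Neither overlapped. With library 23 as the lone control these 6 genes differed by 7.52 to 16.5 points, with adjusted p of 0.161 to 0.492. Hoxc6 differed by 8.78 points without library 7 (adjusted p = 0.0511). Hoxc10 missed the threshold without library 23 (adjusted p = 0.0531), and Hoxc4 without library 23, 5 or 8 (adjusted p = 0.0547, 0.172 and 0.0719).

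In cluster A 4 of the 5 genes past the threshold were posterior ones, all 4 higher in Tet2-/-. Hoxa9 was at 16.3% and 11.97% in Tet2+/+ and at 22.4%, 20.9% and 32.3% in Tet2-/-, a difference of 11.1 points (edgeR, adjusted p = 0.00204). Hoxa10 was at 22.4% and 17.2% against 26.9%, 27.1% and 37.1% (adjusted p = 0.0134). Hoxa11, a gene of the forearm and kidney, was at 20.3% and 22.5% against 33.8%, 35.4% and 41.0%, the widest gap of the 3 at 15.3 points (adjusted p = 0.0104). In all 3 library 8 was the highest and the groups did not overlap. Hoxa13 was at 8.14% and 4.48% against 9.04%, 15.7% and 10.7% (adjusted p = 0.0496), with library 5 less than 1 point above library 23. Hoxa5 was lower in the test, at 93.7% and 89.4% against 91.4%, 54.4% and 92.4% (adjusted p = 0.0495). Its groups overlapped, and without library 7 the difference was 0.353 points (adjusted p = 0.987), so the call was that of 1 library. It also missed the threshold without library 23 (adjusted p = 0.421) or 24 (adjusted p = 0.447). Hoxa7, at 28.1% and 20.2% against 29.98%, 29.7% and 39.9%, was apart but not past the threshold (adjusted p = 0.0638). It passed without library 7 but not without library 5 or 8. With library 23 as the lone control the 4 higher genes differed by 3.66 to 16.4 points, with adjusted p of 0.218 to 0.763. Hoxa13 was the least of them there, and it differed by 3.56 without library 7 (adjusted p = 0.237), and it also missed the threshold without library 5 (adjusted p = 0.0624). Hoxa10 missed it without library 8 (adjusted p = 0.126) and Hoxa11 without library 23 (adjusted p = 0.0914).

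In cluster D, Hoxd13, a digit gene, was at 7.49% and 5.73% in Tet2+/+ and at 13.6%, 9.77% and 25.9% in Tet2-/- (edgeR, adjusted p = 0.00901). Hoxd11 was at 29.2% and 30.2% against 37.5%, 43.9% and 48.0% (adjusted p = 0.0171), and Hoxd10 at 13.3% and 12.3% against 26.2%, 20% and 24.4% (adjusted p = 0.0327). For each of these genes all Tet2-/- libraries were above the controls, which differed by under 2 points. With library 23 as the lone control they differed by 8.92 to 14.0 points, with adjusted p of 0.279 to 0.458. Without library 8 Hoxd13 differed by 5.07 points instead of 9.80 (adjusted p = 0.122), and it missed the threshold without library 23 as well (adjusted p = 0.0517). Hoxd11 missed it without library 23 or 8 (adjusted p = 0.101 and 0.0809), and Hoxd10 without library 23, 5 or 8 (adjusted p = 0.108, 0.156 and 0.0609). In cluster B only Hoxb3 passed, at 72.7% and 62.3% against 78.3%, 82.7% and 75.1%, a difference of 11.2 points (adjusted p = 0.00856) that was 5.95 without library 24 (adjusted p = 0.601). Hoxb7 missed it, at 33.5% and 28.6% against 40.7%, 41.0% and 56.0%, a difference of 14.8 points (adjusted p = 0.0541). It passed without library 7, at 17.3 points (adjusted p = 0.0242), and differed by 9.78 points without library 8 (adjusted p = 0.219). Hoxb4 stood at 22.3% and 23.5% against 23.9%, 17.8% and 19.8%, with overlapping groups and a difference of -2.45 points. Hoxb8 stood at 13.0% and 8.75% against 12.9%, 17.6% and 26.0%, with library 5 between the controls (adjusted p = 0.0548). It passed without library 5 but not without library 7 or 8.

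**Figure D5:**
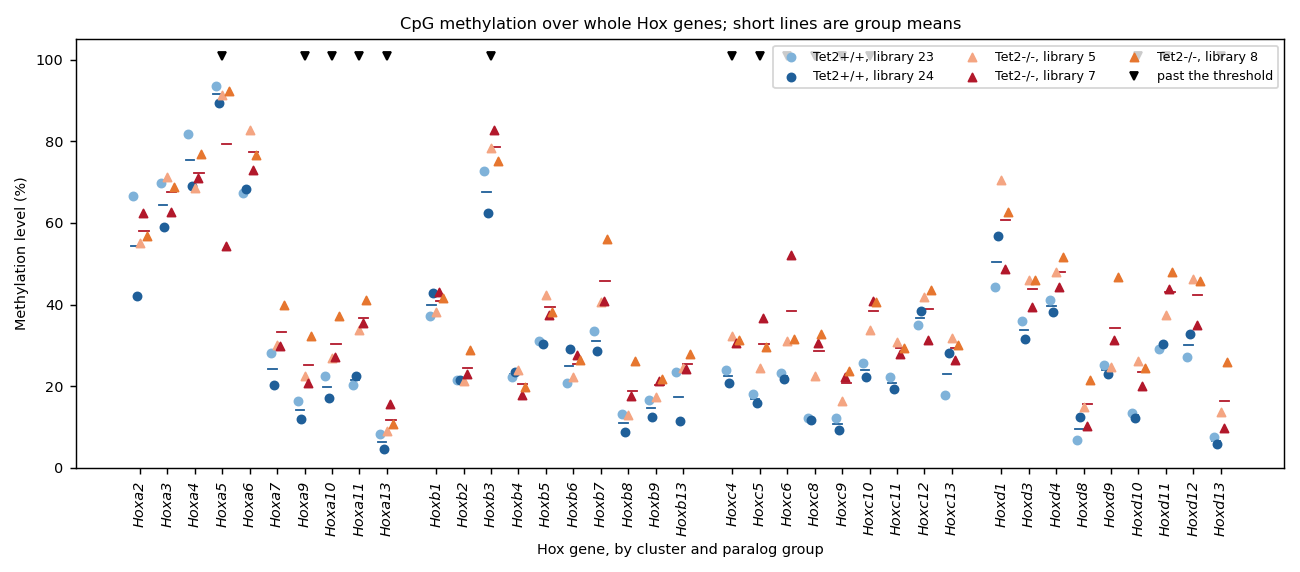
Methylation level in percent over each of the 38 whole Hox genes by cluster and paralog group, 1 point per library, with group means as short lines and arrowheads over the 15 genes past the threshold. Hoxa5 is marked although 2 of its 3 Tet2-/- points lie within the Tet2+/+ range, and 6 of the 9 cluster C genes are marked with all red points above the blue ones.

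Windows of 1 kb were tested in the same way. In the clusters 399 windows had at least 20 calls in every library, and 14 (3.51%) passed the threshold, all higher in Tet2-/-, against 2.29% of all 1047054 windows, of which 2.28% were higher and 0.00936% lower. There were 6 of 84 in A, 2 of 140 in B, 4 of 96 in C and 2 of 79 in D. Hox windows held a median of 23 CpGs and all windows 11. With under 20 CpGs the called shares were 2.35% of Hox windows and 1.99% of all. With 20 to 49 CpGs they were 5.14% and 5.13%, and with 50 or more 1.85% and 2.41%. At like CpG numbers the called share of Hox windows was thus near that of the genome. All Tet2-/- libraries were above both controls in 184 Hox windows (46.1%) against 32.9% of all windows, and below in 4, against 2.06%. The median difference was 9.82 points over the Hox windows and 5.96 over all windows. After subtraction of library medians, a shift of 0.66, 233 of 399 were higher, by a median of 0.15, against 45.4% of all windows. In limma 0 Hox windows then passed, against 0.298% of all windows. Windows with 50 or more CpGs had a median level of 25.8% over 54 Hox windows and 3.11% over 14108 windows of the genome. Without library 24, which again leaves 1 control, 2 of 404 Hox windows passed, against 0.149% of all windows. Without library 23 it was 7 of 405 against 1.16%, and without library 8 it was 9 of 420 against 1.69%. Of the 14 windows, 1 in Hoxc9 was called again without library 24, 4 without library 23, 4 without library 8, and 10 each without library 5 or 7.

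Of the 14 windows, 12 overlapped an exon of a Hox gene, the one at Hoxd11 by its last bases only. How many of all 399 windows overlap such an exon was not counted, so no excess over exons is claimed. The lowest adjusted p was in Hoxd13, at chr2:74669001-74670000, which stood at 3.13% and 0% in Tet2+/+ and at 23.3%, 16.7% and 42.3% in Tet2-/- (edgeR, adjusted p = 0.00753), where 0 of 50 calls in library 24 allows up to 6%. In Hoxc8, chr15:102992001-102993000 was at 14.0% and 2.63% against 27.8%, 55.8% and 36.6% (adjusted p = 0.00914). Both were low in the controls and higher in all 3 Tet2-/- libraries. The Hoxb8 window that holds its 5′ end, chr11:96281001-96282000, was at 5.26% and 5.41% against 27.7%, 38.2% and 20% (adjusted p = 0.0139). It contains the Hoxb8 promoter sequence printed above. The Hoxb3 window chr11:96340001-96341000 was at 16.3% and 11.4% against 39.2%, 42.0% and 47.2% (adjusted p = 0.0468). Among its methylated surroundings in cluster B this window was a low point in the controls.

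In cluster A the neighbouring Hoxa7 windows chr6:52215001-52216000 and chr6:52216001-52217000 both passed. The former was at 26.4% and 10.1% in Tet2+/+ and at 42.8%, 45.8% and 82.3% in Tet2-/-, a difference of 38.7 points, the largest among the 14 (edgeR, adjusted p = 0.0196). The latter was at 8.33% and 4.17% against 22.4%, 20.6% and 45.9%. Library 8 was the highest in both. Without library 8 the former differed by 26.1 points (adjusted p = 0.123), and the latter by 15.2 points instead of 23.4 (adjusted p = 0.155). Without library 24 the former differed by 30.6 points. The Hoxa9 window chr6:52227001-52228000, which overlaps an exon and holds the Hoxa9 sequence printed above, was at 19.8% and 12.1% against 40.6%, 44.4% and 52.9% (adjusted p = 0.0404). The Hoxa10 window chr6:52233001-52234000 was at 9.20% and 7.37% against 25.8%, 29.9% and 38.5% (adjusted p = 0.0235). Both genes are known in leukaemia, and in both windows every Tet2-/- library was far above the higher control. The Hoxa9 window passed without library 7. It missed the threshold without library 5 or 8 (edgeR, adjusted p = 0.0579 and 0.113) and with limma (adjusted p = 0.0621). The Hoxa10 window passed without library 5 or 7 and with limma, and missed it without library 8 (edgeR, adjusted p = 0.0806). With library 23 as the lone control they differed by 26.2 and 22.2 points. In Hoxa13, chr6:52258001-52259000 was at 6.67% and 6.25% against 32.7%, 46.2% and 29.0%, on 30 to 49 calls. The intergenic window chr6:52253001-52254000 between Hoxa11 and Hoxa13 was at 8.36% and 9.90% against 32.1%, 25.8% and 51.4% (adjusted p = 0.0112).

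In cluster C the remaining windows were in Hoxc6, in Hoxc9 and left of Hoxc10. Hoxc6, chr15:103000001-103001000, was at 35.4% and 40.9% in Tet2+/+ and at 80.7%, 73.6% and 64.0% in Tet2-/- (edgeR, adjusted p = 0.0315). Hoxc9, chr15:102983001-102984000, was at 1.85% and 20.9% against 33.9%, 70.9% and 33.9%, so its controls were far apart (adjusted p = 0.0280), and without library 7 its difference was 22.5 points instead of 34.9 (adjusted p = 0.148). The intergenic window chr15:102962001-102963000 was at 17.9% and 7.92% against 39.3%, 48.0% and 43.0% (adjusted p = 0.0227). In cluster D the other window, chr2:74687001-74688000, took in the last bases of Hoxd11 and lay mostly between it and Hoxd10, at 11.4% and 8.72% against 30.5%, 35.5% and 35.7% (adjusted p = 0.0297). All 3 Tet2-/- libraries were above both controls in each of the 14 windows.

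Other large differences missed the threshold, in windows with few CpGs. The largest in cluster C was in the span of Hoxc6, chr15:103008001-103009000, at 16.3% and 19.2% in Tet2+/+ and 48.1%, 78.6% and 41.7% in Tet2-/- on 24 to 52 calls (edgeR, adjusted p = 0.0585). At the end of Hoxc8 and mostly beyond it, chr15:102994001-102995000 was at 4.88% and 20% against 27.9%, 80.4% and 35.7% on 25 to 68 calls (adjusted p = 0.0581). Library 7 was the highest in both, as over the Hoxc6 body, and without it they differed by 27.1 points instead of 38.4 and by 19.4 instead of 35.6. In cluster B, chr11:96241001-96242000 between Hoxb13 and Hoxb9 was at 43.3% and 19.4% against 66.7%, 69.4% and 65.5%, and chr11:96313001-96314000 left of Hoxb4 at 45.8% and 55.6% against 67.4%, 95.7% and 91.7%. In cluster D, chr2:74756001-74757000 near Hoxd1 was at 68.2% and 50% against 87.8%, 96.7% and 88.0%, and chr2:74737001-74738000 in the span of Hoxd3 at 34.7% and 13.3% against 61.8%, 53.5% and 48.8%. In cluster A the sparse window chr6:52198001-52199000 near Hoxa5, with 3 CpGs, was at 28.6% and 14.3% against 58.3%, 65.2% and 38.1%. With limma, chr11:96313001-96314000, chr15:103008001-103009000 and chr2:74756001-74757000 passed (adjusted p = 0.0479, 0.0490 and 0.0415). The other windows of this paragraph did not.

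The 4 windows with all Tet2-/- libraries below the controls lay beside Hoxb13 and over Hoxc12, and none passed the test. In the stretch between Hoxb9 and Hoxb13, a prostate and tail gene, chr11:96209001-96210000 was at 75.0% and 77.8% in Tet2+/+ and at 61.2%, 63.2% and 42.9% in Tet2-/- (edgeR, adjusted p = 0.394), and chr11:96201001-96202000 at 41.4% and 41.2% against 34.6%, 20% and 18.2% (adjusted p = 0.454). Both had few calls, 21 to 60 per library. The Hoxc12 windows chr15:102937001-102938000 and chr15:102936001-102937000 differed by -7.98 and -4.11 points with adjusted p of 0.695 and 0.852. They cover the same CpGs as most of the Hoxc12 promoter, the only Hox promoter lower in all 3 Tet2-/- libraries.

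The clusters also carry microRNA genes, and their mature products fall into families by the seed, bases 2 to 8, which pairs with target messages. The sequences are from RefSeq with the seed in capitals, and they show that the miR-10 genes of clusters B and D share 1 seed and the miR-196 genes of clusters A, B and C another.
miR-10a-5p: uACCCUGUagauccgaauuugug
miR-10b-5p: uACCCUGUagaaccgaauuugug
miR-196a-5p: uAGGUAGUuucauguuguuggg
miR-196b-5p: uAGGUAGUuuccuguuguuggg
miR-615-3p: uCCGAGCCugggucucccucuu
The annotation gives these genes as short hairpins, so windows around their 5′ ends need not be promoters. Around the miR-10 hairpins the level was high. Mir10a, beside Hoxb4, was at 73.5% and 66.3% in Tet2+/+ and at 89.0%, 67.3% and 82.4% in Tet2-/-, and Mir10b, in the span of Hoxd3 and Hoxd4, at 69.7% and 71.6% against 79.0%, 70.8% and 78.3%. In both, library 7 lay within the range of the controls. The miR-196 genes, whose products act on Hox messages, were unlike one another although Mir196a-1 and Mir196a-2 encode the same mature sequence. Mir196a-1 in cluster B was at 54.2% and 60.1% against 50.6%, 78.7% and 65.2%. Mir196a-2 in cluster C was at 11.7% and 13.7% against 23.1%, 30.7% and 18.4%, and Mir196b inside the annotated span of Hoxa9 at 13.1% and 11.3% against 16.3%, 19.8% and 28.2%. The groups overlapped in Mir196a-1 and were apart in the other 2 genes, as they were in 32.8% of protein-coding promoters in the upward direction. Mir615, inside Hoxc5, was at 27.8% and 20.6% against 32.4%, 29.3% and 36.9%.

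Of the long noncoding genes, Hottip next to Hoxa13, known for holding the posterior A cluster active, was at 13.9% and 7.45% in Tet2+/+ and at 23.7%, 25.2% and 28.6% in Tet2-/- around its 5′ end. Hotairm1, at the anterior end of cluster A and known from myeloid maturation, was at 26.8% and 31.9% against 34.4%, 40.6% and 37.4%. Hotair, in cluster C, was at 36.2% and 24.8% against 37.0%, 38.7% and 36.7%. All 3 were apart in the upward direction, beside 32.8% of protein-coding promoters, Hotair by less than 1 point. Of the antisense genes, Hoxa11os was at 15.5% and 21.7% against 29.2%, 34.3% and 37.3%, Hoxb3os at 40.3% and 22.99% against 57.7%, 40.4% and 73.0%, and Hoxb5os at 74.8% and 55.2% against 87.1%, 76.9% and 74.1%. Hoxa11os and Hoxb3os were apart, the latter only just, and Hoxb5os overlapped. Haglr beside Hoxd1 was at 38.02% and 44.2% against 57.4%, 39.0% and 64.1%, with library 7 between the controls. Its window shares nearly all its CpGs with the Hoxd1 promoter, so this is not a separate result. The noncoding windows were outside the fit over protein-coding genes. Exact permutation gave p from 0.1, the smallest that 2 against 3 libraries allow, to 0.3 over the lncRNA and antisense genes. The homeobox genes Evx1 and Evx2, which border clusters A and D on their posterior sides, were at 19.2% and 7.18% against 20.1%, 28.9% and 31.9%, and at 25.8% and 16.9% against 43.4%, 32.3% and 24.3%.

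CTCF, a zinc finger protein that sets boundaries between the parts of a Hox cluster, binds a motif whose core, the capitals of the matches below with free letters after CCA and after AG, was searched on both strands. There were 33 matches, 7 in A, 18 in B, 6 in C and 2 in D, and 9 held or touched a CpG. Of the 488 windows of 1 kb in the clusters 6.56% held a match, against 5.11% of the 2633767 windows of the genome, so matches were about as frequent as elsewhere. The 4 matches shown hold or touch a CpG and lie in stretches of different level, with the motif in capitals between 4 bases on each side.
Hoxa10, chr6:52240541-52240552, minus strand: gccgCCACGAGATGGCgcac
Hoxb3, chr11:96344778-96344789, plus strand: gcgcCCACAAGGCGGCctgg
Hoxb6, chr11:96299354-96299365, plus strand: ttacCCACCAGCCGGCggcg
Near Hoxd12, chr2:74673178-74673189, minus strand: acgcCCAGGAGATGGCgagc
Over the 5 libraries together the CpGs in or at the edge of these motifs were methylated in 1.52% of 66 calls in Hoxa10, 88.5% of 26 calls in Hoxb3, 6.98% of 43 calls in Hoxb6 and 0% of 17 calls near Hoxd12, which allows up to 17.6%. A match is a run of letters and does not show that CTCF was bound.

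Proteins that work with HOX factors or act on Hox chromatin were looked at through the promoters of 33 genes. Of these 1 was called higher in Tet2-/-, against 1.06% of all promoters, and 0 lower. All Tet2-/- libraries were above the controls in 11 of the 33, a share close to the 32.8% of all promoters. Their median difference was 0.709 points, under the 2.22 of all promoters. The called gene was Meis2, a homeobox cofactor of HOX proteins, at 3.15% and 2.39% in Tet2+/+ and at 13.3%, 10.9% and 15.4% in Tet2-/- (edgeR, adjusted p = 0.0425), and it was not past the threshold when any 1 library was left out. Its groups were well apart, though on a low level. Meis1, the cofactor paired with Hoxa9 in leukaemia, was at 2.66% and 1.33% against 3.49%, 2.19% and 3.86%, and Pbx3 at 20% and 25.4% against 21.5%, 17.2% and 20.4%. Both overlapped. Among 9 TALE cofactor genes 4 were above and Pknox1 was below, at 1.21% and 1.39% against 0.698%, 0.618% and 0.578%. Among 9 genes of the Trithorax side 3 were above, among 12 of the Polycomb side 2, and among the 3 Cdx genes, which switch on Hox clusters in the embryo, 2, beside the same 32.8% over all promoters. Cdx2 was at 9.76% and 8.67% against 19.5%, 13.4% and 40.9% (adjusted p = 0.157), and no gene of the Polycomb or Trithorax side passed the test.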

How the data were processed

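The authors trimmed reads with Trim Galore 0.4.3, aligned them to GRCm38 (mm10) with Bismark 0.19.1 and Bowtie2, removed duplicate reads by position, and deposited per library the counts of methylated and unmethylated calls at each CpG cytosine, per the labels and the study's methods. From these deposited counts both strands of a CpG were summed, and calls were summed over promoters, gene bodies and 1 kb windows of the autosomes and X. Regions with at least 20 calls in every library entered edgeR 4.0.16 (R 4.3.3), with methylated and unmethylated counts as columns, Benjamini-Hochberg adjustment over all regions of the kind and a threshold of 0.05. limma 3.58.1 on log2 ratios of methylated to unmethylated calls (pseudocount 2) was an alternative. Both were also run on simulated data in which most regions did not differ between the groups. In the real data most regions shift upward, so those runs do not measure the error of the calls made here. Values of whole clusters were compared by exact permutation. Annotation was GENCODE vM21 and sequence RefSeq GRCm38.p6, and every CpG of the counts fell on CG in that sequence.

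Groups came from the sample titles. All 38 Hox genes followed here are accounted for. Those given per library passed the threshold, or had the 5 largest differences without overlap in either direction or the 5 highest promoter levels. Others given per library are known in blood, except Hoxa3, which met none of these rules. The promoters of Hoxa13 and Hoxc10 are given because their gene bodies passed. Hoxd3 and Hoxd4, whose promoter windows hold the same CpGs, were added after their values were seen. The Hox genes, the lists and the tests were chosen with earlier results of these data known. A further Hox gene was not analysed here. Calls per region set the precision, 20 being the least, and a level of 0 leaves an upper limit of 3 counts of the calls, which covers counting error only. The p-values measure the spread between 5 mice. The alternatives were other minimums of calls, promoter widths, window positions, limma as such or after library medians were subtracted, thinning of calls, and leaving out each library.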

Additional observations from a re-analysis of the deposited data

How the results depend on the processing

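The body count moved with the test, and the body and window counts moved with library 24. The number of Hox promoters called in Tet2-/- against Tet2+/+ was 0 as reported. It was 4 with promoters of 2000 bp on each side (Hoxb3, Hoxb8, Hoxc10 and Hoxc5, against 2.60% of all). After thinning to the shallowest library it was 1 (Hoxb8, against 1.26% of all). When a Tet2-/- library was left out it was 0 to 1 (0.420% to 1.53% of all), with 1, Hoxb7, without library 5 (1.53%). The number of Hox gene bodies called was 15 as reported, 0 with limma (0.565% of all bodies; 21 at an unadjusted p under 0.05, against 24.5%), 0 with limma after subtraction of library medians (0.00483%; 5 unadjusted, against 17.2%), 9 without the first 1000 bp of each gene (10.3% of all bodies), and 0 to 16 when each library was left out (0.420% to 16.1% of all), with 0 without library 24 (0.420%). The number of Hox windows called was 14 as reported, 14 with limma, of which 10 were shared, 0 with limma after subtraction of library medians (55 unadjusted, against 10.4%), and 2 to 17 when each library was left out (0.149% to 2.10% of all windows), with 2 without library 24 (0.149%). Leaving out library 23 or 24 leaves 1 control, assumed to vary like the Tet2-/- libraries. The cause of these differences was not otherwise tested. The partner call, Meis2, became 0 with subtracted medians and 0 to 0 when each library was left out. Of all windows limma called 1.92%, and 0.298% after subtraction of library medians. Adding edgeR with bias-adjusted deviances, chosen after seeing the data, gave 0 promoters, 14 bodies and 14 windows. The shares of all promoters, bodies and windows were then 1.26%, 15.6% and 2.26%.

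All 4 cluster differences kept their sign when a library was left out: 3.66 to 12.7 in A, 6.14 to 9.28 in B, 9.69 to 12.02 in C and 8.59 to 12.1 in D. Promoters under 10% numbered 4 with 500 bp on each side. Signs changed for the promoter of Hoxa7 (0.756 as reported, -0.64 after thinning, -0.40 on the log2 scale with subtracted medians, -1.01 to 2.80 when a library was left out, with -0.83 without library 8), of Hoxa2 (-2.68 as reported, 3.39 with 2000 bp on each side, -15.3 to 9.93 when a library was left out, with 0.333 without library 5), of Hoxb4 (2.84 with 500 bp) and of Hoxc12 (0.392 with 2000 bp), and for the Hoxa5 body (-12.2 as reported, -18.7 to 0.353 when a library was left out, the latter without library 7, and 1.58 without its first 1000 bp). No paired analysis was possible because the groups share no replicate numbers. Depth limits any region near the minimum of 20 calls.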
